A study of Homo sapiens with 9 samples.

Results

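The genes followed here are GJB2, GJB5, GJB6, GJA1 and GJC1, which encode connexins, and PANX1, which encodes pannexin 1. They were chosen by gene symbol, and the rule used none of their values. Of these 6 genes, 5 were listed in all 9 libraries, out of 16199 genes listed in at least 1 library. GJB6 was listed in none of the 9 tables used here and counts as 0 in every library under the rule, so no fold is given for it. The 5 listed genes all passed the filter on low counts, which kept 12394 genes.

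The RNA came from HaCaT cells, an immortalised line of human keratinocytes, labelled wild type. All cells were in serum-free medium once confluent. The 3 groups were untreated cells, cells given epidermal growth factor (EGF, 10 nM for 24 h) and cells given bleogen pB1 (1 µM for 24 h), a cystine-knot miniprotein of the cactus Pereskia bleo that is described as an agonist of the EGF receptor. There were 3 libraries per group from this single line, and nothing in the labels says that they came from separate cultures, so p-values measure the spread between these libraries, which may be technical.

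Connexins assemble into hexameric hemichannels, and hemichannels of neighbouring cells dock to form gap junctions, through which ions and small metabolites pass directly between cells. Keratinocytes use several connexins at once, with a mix that differs between the layers of the epidermis and at wound edges. Pannexins share the membrane topology of connexins without sequence similarity to them, and pannexin 1 is best known as a channel that releases ATP to the outside of the cell.

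On GRCh38 with the GENCODE 44 annotation, GJB2 lies on the minus strand at chr13:20187463-20192938, and the start of GJB6 on the same strand lies 39.4 kb from it, within chr13:20221962-20232365. GJB5 lies at chr1:34755047-34758512 on the plus strand. GJA1 lies at chr6:121435595-121449727 on the plus strand, GJC1 at chr17:44798448-44830816 on the minus strand and PANX1 at chr11:94128841-94181968 on the plus strand. GJB2, GJB5 and GJA1 each have 2 exons in the canonical transcript, GJC1 has 3 and PANX1 has 5.

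The 250 bases before the RefSeq start (GRCh38.p14) are shown for GJB2, the gene with the largest difference under EGF, and for GJA1, the gene with the smallest adjusted p under bleogen pB1. Capitals mark matches, on either strand, to the letters TGANTCA (the AP-1 type) or GGGCGG (the GC box, CCGCCC on the other strand), and the 2 motifs do not overlap in these windows. The GJB2 window is chr13:20192939-20193188 on the minus strand. The GJA1 window is chr6:121435396-121435645 on the plus strand, and the RefSeq start of GJA1 lies 51 bases downstream of the GENCODE start.
GJB2: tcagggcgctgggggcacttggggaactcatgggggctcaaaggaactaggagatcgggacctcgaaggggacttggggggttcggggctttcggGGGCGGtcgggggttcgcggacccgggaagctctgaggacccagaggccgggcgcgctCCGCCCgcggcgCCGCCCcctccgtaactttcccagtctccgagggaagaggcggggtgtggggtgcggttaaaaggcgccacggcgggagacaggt
GJA1: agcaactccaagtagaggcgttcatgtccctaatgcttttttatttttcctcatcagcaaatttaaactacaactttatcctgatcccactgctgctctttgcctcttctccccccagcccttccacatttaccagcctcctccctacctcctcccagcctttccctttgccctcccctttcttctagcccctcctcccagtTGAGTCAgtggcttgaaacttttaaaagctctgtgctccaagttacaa

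The GJB2 window held GGGCGG 3 times, at 155, 97 and 85 bases before the start, no TGANTCA, and a GC content of 70%. The GJA1 window held TGANTCA 1 time, 48 bases before the start, no GGGCGG, and a GC content of 48%. The PANX1 window held GGGCGG 1 time, 43 bases before the start, and the GJB6 window held neither motif. For GJB6, the RefSeq start of this window lies 1387 bases downstream of the GENCODE start. Over the 35116 windows of this length, 6.57% held TGANTCA, 42.6% held GGGCGG and the median GC content was 58%. A match describes the letters only, and binding was not measured.

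Library totals ranged from 20288417 to 21320994 expected counts, and a floor of 3 counts equals 0.141 to 0.148 CPM, the count scaled to the library total (counting error only). The 7 keratinocyte markers (among them KRT5 and TP63) were all listed, with a summed level of 12530 to 13840 CPM in untreated cells, 12120 to 12970 CPM under EGF and 12360 to 14350 CPM under bleogen pB1. KRT5, a basal keratin and the highest of these markers, averaged 7809 CPM in untreated cells, 3603 CPM under EGF and 7215 CPM under bleogen pB1, so its level was lowest under EGF while the summed ranges of the 3 groups overlapped. The 7 fibroblast markers were all listed at a low level, with a sum of 7.61 to 9.31 CPM in untreated cells, 1.30 to 2.00 CPM under EGF and 6.08 to 9.17 CPM under bleogen pB1. The sum was thus lowest under EGF, where no marker averaged above 0.926 CPM. All 4 endothelial markers were listed, with a sum of 1.10 to 1.41 CPM in untreated cells, 0.25 to 0.453 CPM under EGF and 0.562 to 1.29 CPM under bleogen pB1. The 4 melanocyte markers summed to 0.739 to 1.58 CPM over the 9 libraries, with TYR at 0, and the leukocyte markers to 0.80 to 2.09 CPM. KRT5 and the fibroblast and endothelial sums moved with EGF, and their part in the results was not tested.

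Untreated HaCaT cells carried mainly GJB5 and GJA1 transcripts among the 5 listed genes, with PANX1 next and GJC1 and GJB2 far lower. On the FPKM scale deposited by the authors (fragments scaled for gene length and library size, the only scale on which different genes are compared here), the untreated levels were 34.9 ± 2.80 for GJB5, 20.5 ± 0.376 for GJA1, 15.1 ± 1.02 for PANX1, 2.48 ± 0.046 for GJC1 and 2.23 ± 0.252 for GJB2 (SD, n = 3). No neighbours in this order overlapped over the libraries, although the gap between GJC1 and GJB2 was 1.36 SD only. Under bleogen pB1 the order was the same. Under EGF, GJB2 at 15.4 ± 3.58 FPKM moved above GJC1 at 3.63 ± 0.231 FPKM (SD, n = 3), and the other genes kept their places.

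EGF against untreated cells asks what the growth factor changes after 24 h. All 5 listed genes rose under EGF, GJB2 by 7.21-fold and the other 4 by 1.52-fold to 1.78-fold. A gene was called when its adjusted p (edgeR's quasi-likelihood test, Benjamini-Hochberg over all genes tested) was at most 0.05 and its log2 fold change at least 0.5 in size. Of all genes tested, 36.9% were called in this comparison and 15.1% were called higher, 32.4% were higher by the adjusted p alone, and 34.5% had EGF libraries all above the untreated ones, as the 5 genes had. The median log2 fold change of the 5 genes was 0.79, and that of all genes tested was -0.01.

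GJB2 encodes a beta connexin whose loss of function is a frequent cause of inherited deafness, and in skin it is known to rise at wound edges and in psoriasis. Its level was 2.44, 1.95 and 2.30 FPKM in the untreated libraries and 19.15, 12.03 and 14.93 FPKM in the EGF libraries, from 90 to 114 and from 563 to 906 expected counts. The groups did not overlap, and the EGF libraries were more spread out, relative to their mean, than those of the other 4 genes, with replicate 1 the highest. The log2 fold change was 2.85 ± 0.17 (SE, 95% interval 2.49 to 3.21, adjusted p = 2.2e-08 by edgeR). GJB6, the beta connexin beside GJB2 that is mutated in Clouston syndrome, has no value to compare.

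GJB5, a beta connexin expressed mainly in skin, measured 38.00, 33.90 and 32.64 FPKM in the untreated libraries and 56.44, 55.22 and 52.54 FPKM under EGF. The lowest EGF library was well above the highest untreated one. The difference was 0.72 ± 0.07 on the log2 scale (SE, adjusted p = 3.3e-06 by edgeR), a fold of 1.65.

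GJA1, the most widely expressed connexin of the body, measured 20.91, 20.19 and 20.36 FPKM in the untreated libraries and 36.17, 31.44 and 34.43 FPKM under EGF. Its untreated libraries were close together, and all 3 EGF libraries were higher. The log2 fold change was 0.79 ± 0.08 (SE, adjusted p = 3.1e-06 by edgeR), which is 1.73-fold.

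GJC1, a gamma connexin best known from the conduction system of the heart and from smooth muscle, measured 2.45, 2.53 and 2.45 FPKM in the untreated libraries and 3.49, 3.90 and 3.51 FPKM under EGF. The groups did not overlap, at a level that stayed low in every library. Its difference was the smallest of the 5, with a log2 fold change of 0.61 ± 0.08 (SE, adjusted p = 2.8e-05 by edgeR). The expected counts of GJC1 were fractional in all 9 libraries (tolerance 0.005), whereas those of the other 4 listed genes were whole in all 9, so the GJC1 counts are estimates and less certain. On log2(FPKM + 1), which shrinks differences of low genes, the GJC1 difference was 0.41 in limma and under the fold limit.

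PANX1, the ATP-release channel, measured 15.09, 14.02 and 16.07 FPKM in the untreated libraries and 23.24, 27.44 and 26.23 FPKM under EGF. All 3 EGF libraries were above all untreated ones. The log2 fold change was 0.83 ± 0.09 (SE, adjusted p = 3.6e-06 by edgeR), or 1.78-fold. An exact permutation test of 3 against 3 CPM values gave p = 0.1 (two-sided) for each of the 5 genes, the smallest value that this design allows. In bulk RNA, a change per cell and a change in the share of cells that carry a transcript cannot be told apart.

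Under bleogen pB1, none of the 5 genes was called against untreated cells, where 1.48% of all genes tested were called and 0.218% were called higher. DESeq2 and limma on log2(FPKM + 1) also called 0 of them, and 3 of the 5 (GJA1, GJC1 and PANX1) had an unadjusted p under 0.05 in edgeR. GJA1 was the only one with an adjusted p under 0.05, which 1.56% of all genes tested reached in the higher direction. The median log2 fold change of the 5 genes was 0.21, beside -0.001 over all genes tested. EGF and bleogen pB1 were set against the same untreated libraries, so the 2 comparisons are not independent.

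GJA1 measured 24.71, 31.07 and 28.85 FPKM under bleogen pB1, all above the 3 untreated libraries at 20.19 to 20.91 FPKM. Its log2 fold change was 0.44 ± 0.08 (SE, 95% interval 0.27 to 0.62, adjusted p = 0.0097 by edgeR), a fold of 1.36 and under the fold limit. Replicate 1 was the lowest of the bleogen pB1 libraries, and without it the log2 fold change was 0.53 (adjusted p = 0.0014 by edgeR) and passed both limits. The adjusted p of edgeR was 0.068 without bleogen pB1 replicate 3, and 0.052, 0.051 and 0.051 without untreated replicates 1, 2 and 3.

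GJC1 measured 2.70, 2.98 and 3.04 FPKM under bleogen pB1, above the 3 untreated libraries, with a log2 fold change of 0.21 (95% interval 0.04 to 0.39, adjusted p = 0.15 by edgeR). PANX1 measured 15.88, 19.42 and 18.26 FPKM, and replicate 1 lay within the untreated range. Its log2 fold change was 0.23 (95% interval 0.04 to 0.42, adjusted p = 0.15 by edgeR). Of the 5 genes, GJA1 and GJC1 had groups that did not overlap with bleogen pB1 higher, which 14.4% of all genes tested also had.

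For the beta connexins no difference from untreated cells was detectable under bleogen pB1. GJB2 measured 2.12, 2.13 and 2.43 FPKM under bleogen pB1, inside the untreated range, and its log2 fold change was -0.02 (95% interval -0.43 to 0.38, adjusted p = 0.96 by edgeR). GJB5 measured 35.33, 31.51 and 34.53 FPKM, overlapping the untreated libraries, and its log2 fold change was -0.07 (95% interval -0.23 to 0.09, adjusted p = 0.63 by edgeR). For GJB2, with about 100 counts per library, a fold of up to 1.31 is within the interval. For GJB5 the interval ends at 1.07-fold.

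The direct comparison of EGF with bleogen pB1 tests whether the 2 agents left different levels at the doses used, which differed. Of the 5 genes, 3 were higher under EGF and called, GJB2, PANX1 and GJB5, where 28.8% of all genes tested were called and 10.8% were called higher under EGF. GJB2 differed by 2.87 ± 0.16 on the log2 scale (SE, adjusted p = 3.1e-08 by edgeR), or 7.32-fold. GJB5 differed by 0.79 ± 0.07 (SE, adjusted p = 2.3e-06 by edgeR) and PANX1 by 0.61 ± 0.09 (SE, adjusted p = 6.8e-05 by edgeR) on the same scale. For GJB2 and GJB5, every EGF library was above the highest bleogen pB1 library by a wide margin.

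GJA1 and GJC1 were closer between the 2 agents. The lowest GJA1 level under EGF was 31.44 FPKM and the highest under bleogen pB1 was 31.07 FPKM, so the groups touched without overlapping. The log2 fold change was 0.35 ± 0.08 for GJA1 (SE, 95% interval 0.18 to 0.53, adjusted p = 0.0023 by edgeR) and 0.39 ± 0.08 for GJC1 (SE, 95% interval 0.22 to 0.57, adjusted p = 0.0010 by edgeR), under the fold limit for both. All 5 genes passed the adjusted p alone and had EGF libraries all above those of bleogen pB1, which 28.5% and 30.7% of all genes tested did in this direction. PANX1 was at the fold limit on log2(FPKM + 1), where limma gave 0.50 and made no call.

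**Figure D1:**
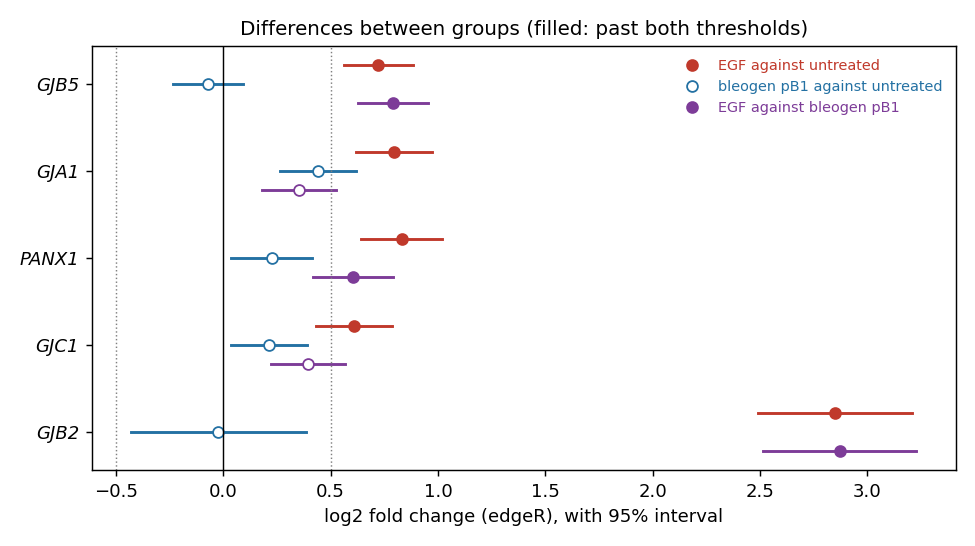
Log2 fold change of edgeR (horizontal axis) of the 5 listed genes in the 3 comparisons, with 95% intervals. Filled points passed both the adjusted p of 0.05 and the log2 fold change of 0.5, which dotted lines mark. The 5 EGF against untreated points are filled, no bleogen pB1 against untreated point is, and the intervals of GJB2 and GJB5 under bleogen pB1 include 0.

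The sum of the 4 listed connexins among the chosen genes was larger under EGF. It was 60.04 ± 3.28 FPKM in untreated cells, 108 ± 6.65 FPKM under EGF and 67.1 ± 2.05 FPKM under bleogen pB1 (SD, n = 3). The shares of this sum follow as a description, without a test, and other connexins are not part of it.

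GJB2 made up 3.71% ± 0.34 of the sum in untreated cells, 14.2% ± 2.4 under EGF and 3.31% ± 0.20 under bleogen pB1 (SD, n = 3). GJB5 held 58.0% ± 1.5 in untreated cells, 50.9% ± 2.6 under EGF and 50.4% ± 4.0 under bleogen pB1. Its mean share was thus lower under EGF, although its level was higher. GJA1 held 34.2% ± 1.3 in untreated cells, 31.6% ± 1.0 under EGF and 42.0% ± 3.9 under bleogen pB1, so that its mean share was largest under bleogen pB1. GJC1 held 4.13% ± 0.26, 3.39% ± 0.39 and 4.33% ± 0.14 in the same order.

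Among other connexins, GJD3, a delta connexin, fell under EGF by 1.11 ± 0.17 on the log2 scale (SE, adjusted p = 7.9e-05 by edgeR). GJA3 (log2 fold change 0.90, adjusted p = 0.062) and GJA9 (-0.89, adjusted p = 0.060), both alpha connexins, were not called by edgeR, at 4 to 34 counts per library. GJA4, GJA10, GJB7, GJC3 and GJD4 had at most 3 counts in any library and were not tested.

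Under bleogen pB1, GJD3 had a log2 fold change of -0.44 (adjusted p = 0.13 by edgeR), and between the agents it was lower under EGF, at -0.68 ± 0.17 (log2, SE, called by edgeR). PANX2, the other pannexin listed, measured 7.03 ± 0.255 FPKM in untreated cells, 9.04 ± 1.71 FPKM under EGF and 7.32 ± 0.454 FPKM under bleogen pB1 (SD, n = 3). Its log2 fold change under EGF was 0.43 (adjusted p = 0.0062 by edgeR), under the fold limit, and without EGF replicate 1 it was 0.56 and passed both limits.

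Around GJB2, 1 of the 7 tested neighbours was called under EGF, where 36.9% of all genes tested were called. This was ZMYM2, which fell by 0.57 on the log2 scale (adjusted p = 0.00018 by edgeR). The count was 3 without untreated replicate 1. GJA3, the nearest tested neighbour at 31.9 kb from start to start, was not called. Under bleogen pB1, edgeR, DESeq2 and limma each called 0 of these 7 neighbours, and 0 had an unadjusted p under 0.05 in edgeR. Near GJB5, TMEM35B and ZMYM6 start 230 kb and 277 kb away and fell under EGF by 1.03 and 1.02 on the log2 scale (adjusted p = 2.0e-05 and 0.00084 by edgeR), whereas GJB5 rose.

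Among 20 tested genes for connexin partners, trafficking and kinases, EGF raised 3 and lowered 5, where 36.9% of all genes tested were called. Over all genes tested, 15.1% were called higher. The median log2 fold change of the list was -0.04, beside -0.01 over all genes tested. TJP3, a tight junction scaffold, fell by 3.85 ± 0.24 and CDH1, which encodes E-cadherin, by 0.66 ± 0.07, while CNST, which encodes consortin, a trafficking receptor for connexins, rose by 0.81 ± 0.09 (log2, SE, adjusted p = 4.6e-08, 3.1e-06 and 8.6e-06 by edgeR). The count of 8 was 5 without untreated replicate 3. NOV, a secreted protein that binds the GJA1 product, was the 1 gene called under bleogen pB1 (log2 fold change 1.12 ± 0.24, SE, adjusted p = 0.024 by edgeR, 29 to 32 counts per untreated library). It was not called in 5 of the 6 fits that left out 1 library, all but the one without bleogen pB1 replicate 1. NOV was also 1 of the 3 genes raised by EGF, by 1.13 ± 0.24 (log2, SE, adjusted p = 0.0011 by edgeR). That call held in 9 of 12 alternatives and in all 6 fits that left out 1 library. Between the agents NOV was not called (log2 fold change 0.01, adjusted p = 0.97 by edgeR). Between the agents, 2 genes of the list were higher and 4 lower under EGF. Among the latter was NEDD4, a ubiquitin ligase that acts on the GJA1 product, at -0.55. The count of 6 was 3 without bleogen pB1 replicate 1. Of all genes tested, 1.48% were called for bleogen pB1 against untreated cells and 28.8% between the agents.

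Of 12 tested genes for pannexin 1 cleavage, ATP receptors and ATP breakdown, EGF raised 5 and lowered 2, with a median of 0.28. NT5E, the ectonucleotidase that makes adenosine from AMP, rose by 1.66 ± 0.08 and ADORA2B, an adenosine receptor, by 0.80 ± 0.08, and P2RX4, an ATP-gated channel, fell by 1.65 ± 0.20 (log2, SE, adjusted p = 3.7e-09, 3.0e-06 and 1.1e-05 by edgeR). Of 7 other large-pore channel genes, EGF raised LRRC8A by 1.43, LRRC8C by 1.00 and LRRC8E by 0.54 on the log2 scale and lowered 1. LRRC8A is the obligatory subunit of the volume-regulated anion channel. Beside the calls in both lists, 36.9% of all genes tested were called under EGF and 15.1% were called higher. Under bleogen pB1, edgeR, DESeq2 and limma called 0 genes of either list, with 1 and 2 genes at an unadjusted p under 0.05 in edgeR.

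Over the 9 libraries, which fall into the 3 groups, so that likeness largely reflects the groups, the 5 genes resembled each other to differing degrees. Pearson r of log2 CPM ran from 0.727 for GJB5 with GJA1 to 0.975 for GJB2 with GJB5. Among 10863 genes with a mean of at least 50 counts, the most like GJB2 was SLC37A2 (r = 0.996), the most like GJB5 PXN (r = 0.997), the most like GJC1 CKS1B (r = 0.996) and the most like PANX1 PSMC5 (r = 0.995). Values this high were common, since 536, 266, 388, 653 and 1027 genes had an r above 0.95 with GJB2, GJB5, GJA1, GJC1 and PANX1. Among the genes looked up by name, NT5E was the most like GJB2 (r = 0.989) and GJB5 (r = 0.974), CNST the most like GJC1 (r = 0.969) and PANX1 (r = 0.989), and VDAC1 the most like GJA1 (r = 0.927).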

How the data were processed

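Gene expression was measured by RNA-seq of oligo-dT selected RNA in 9 HaCaT libraries (3 per group, by their titles). The authors had the reads mapped to GRCh38.p12 by the sequencing company. The aligner, the counting program and its strand setting are not given in the sources used here. Per gene, the authors deposited an expected count, an estimate that need not be whole and is not adjusted for library size. The authors also deposited FPKM, the same counts after division by gene length and library size.

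After rounding, the counts went into edgeR 4.0.16 (R 4.3.3, filterByExpr, TMM factors, glmQLFit and glmQLFTest, all 9 libraries in 1 fit with 1 coefficient per group, 6 residual degrees of freedom, Benjamini-Hochberg over 12394 genes). The limits of the calls are those of the study, which used DESeq2. Standard errors were derived from F, as the size of the log2 fold change over the root of F. CPM are scaled by TMM. The fit was tested on simulated data. Alternatives were DESeq2 1.42.0, limma 3.58.1 on log2(FPKM + 1) and log2(FPKM + 0.1), other factors, filters and fold limits, the 6 compared libraries only, a replicate block and fits with 1 library left out. Python 3.11.15 was used for the rest.

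The genes, lists and tests were chosen with earlier results of these data known. Named genes are the chosen genes, listed connexins and pannexins, up to 3 called genes per other list and comparison with the smallest adjusted p, and the genes most alike by Pearson r over log2 CPM (prior count 2). ZMYM6 and the marker genes were named outside this rule, after their values were seen. Promoter windows are those of RefSeq and were found for GJB2, GJB6, GJA1 and PANX1, 4 of the 6 genes. Protein sequences were not used here. Some genes that these rules select are not reported here.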

Additional observations from a re-analysis of the deposited data

How the results depend on the processing

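Over 270 combinations of a chosen gene, a comparison and an alternative, 256 kept the direction and the side of the limits. All 5 genes were called under EGF in every alternative but 4: GJC1 was lost on log2(FPKM + 1) with each of 3 filters, and GJB2 alone, 1 gene, was left at a log2 fold change of at least 1. In the other comparisons a limit of 1 left 0 genes for bleogen pB1 against untreated and 1 for EGF against bleogen pB1, and the adjusted p alone gave 1 and 5. Leaving out 1 library gave 5 to 5 calls for EGF against untreated, 0 to 1 for bleogen pB1 against untreated (GJA1, without bleogen pB1 replicate 1) and 3 to 3 for EGF against bleogen pB1. PANX1 was lost between the agents on log2(FPKM + 1).

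The sign of GJB2 under bleogen pB1, never called, turned from -0.02 to 0.00011 on log2(FPKM + 1) with each of the 3 filters and to 0.0011 on log2(FPKM + 0.1), and it ran from -0.11 to 0.047 with 1 library left out. Upper-quartile factors moved the median of all genes to -0.12 for EGF against untreated and the share of calls that were higher from 41.0% to 30.2% (from 37.6% to 28.8% for EGF against bleogen pB1), with all chosen genes keeping their calls.

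List counts under EGF fell from 8 to 5 (partners) and from 7 to 4 (ATP genes) on log2(FPKM + 1). Around GJB2 the count of 1 was 2 with upper-quartile factors and 3 without untreated replicate 1. Between the agents it was 0 without EGF replicate 2 or bleogen pB1 replicate 1. PANX2 was also called between the agents without EGF replicate 1. For bleogen pB1 against untreated cells, NOV was also lost by limma without a filter.

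The deviations of same-numbered libraries correlated weakly, at -0.030 to 0.207 over the 9 pairs. Those of libraries with different numbers ran from -0.253 to 0.163. Whether the numbers pair libraries cannot be told from such weak correlations. With the replicate number as a block, 5, 0 and 3 genes were called in the 3 comparisons, as without it. The cause of these differences was not tested. Depth limits GJB2 most, at 90 to 115 counts outside EGF. The groups have 3 libraries each, too few for a test for outlying libraries.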
